A study of Mus musculus with 26 samples.

Results

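Romidepsin, an inhibitor of histone deacetylases, was compared with saline in the retina of rd10 mice, which carry a Pde6b mutation and lose their rods. The comparison takes 6 of the 26 libraries of the series, 3 from Romidepsin-treated and 3 from control mice, chosen by the library names and described over every gene that passed a count filter. All 6 are RNA-seq libraries of retina with the genotype label B6.CXB1-Pde6brd10/Jrd10, and mice were injected intraperitoneally each day from postnatal day 9 (PN9) to PN24. The control libraries carry no treatment in their labels, and the protocol names saline for controls. No group of wild-type retina belongs to this experiment, so every value is relative to degenerating rd10 retina. The labels call the libraries biological replicates and do not say how many retinas or animals went into each, so the p-values measure the spread between these libraries. The point mutation in rd10 is not checked by the Pde6b transcript level, while Gnat1, the rod transducin, was at 2861 CPM (read counts scaled to a common library size with TMM factors) or more in every library, as retina would have.

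Histone deacetylases remove acetyl groups from the tails of histones, which closes chromatin, and they act inside corepressor complexes. Inhibitors of these enzymes raise acetylation and typically turn some genes up and others down. In rd10 retina the loss of PDE6 activity kills rods first and cones later, microglia move into the photoreceptor layer, and Müller glia become reactive.

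Counted reads per library ran from 14860171 to 18992445 in controls and from 17485796 to 21891190 after Romidepsin, so that a count of 3, taken as the floor, equals 0.137 to 0.202 CPM. Replicates differed from each other by more than sampling noise. Xist and Y-linked transcripts showed that controls 1 and 2 and Romidepsin 2 were from males, and control 3 and Romidepsin 1 and 3 from females. Sex is therefore not balanced between the groups.

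Of 16049 genes tested with edgeR's quasi-likelihood test, 65 were upregulated (0.405% of the genes tested) and 25 were downregulated (0.156%) when a Benjamini-Hochberg adjusted p under 0.05 and a log2 fold change beyond 1 in either direction were both required. The median change was 2.61-fold among upregulated and 3.28-fold among downregulated genes, and log2 fold changes ran from 1.00 to 3.64 and from -3.14 to -1.08. Without the fold threshold 92 genes rose (0.573%) and 28 fell (0.174%). The count of genes grew with weaker criteria in both directions. At an unadjusted p under 0.05, 1592 genes were higher (9.92%) and 1518 lower (9.46%), and in 2168 genes (13.5%) every Romidepsin library lay above every control, against 2006 genes (12.5%) in which every one lay below. The likelihood ratio test, which the study used, gave 657 genes higher (4.09%) and 528 lower (3.29%) at the adjusted p alone, and DESeq2 596 (3.71%) and 478 (2.98%).

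The number of calls depended on single libraries. No gene was called without control 2, without control 3 or without Romidepsin 3, with smallest adjusted p-values of 0.120, 0.112 and 0.124, although 2208, 2526 and 2477 genes then had an unadjusted p under 0.05 in edgeR's quasi-likelihood test. Without control 1, 21 genes were called higher and 60 lower, without Romidepsin 1, 217 and 121, and without Romidepsin 2, 101 and 46. With sex as a term, an alternative added after seeing the data, no gene was called either, with a smallest adjusted p of 0.0690 and 2459 genes at an unadjusted p under 0.05. In each of these fits all 90 genes kept their direction and an unadjusted p under 0.05, and the likelihood ratio test and DESeq2 on all 6 libraries called all 90. The 90 genes were picked from these same libraries, and their groups did not overlap. Their direction and small p in these fits were thus largely fixed beforehand and give no independent support.

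**Figure D1:**
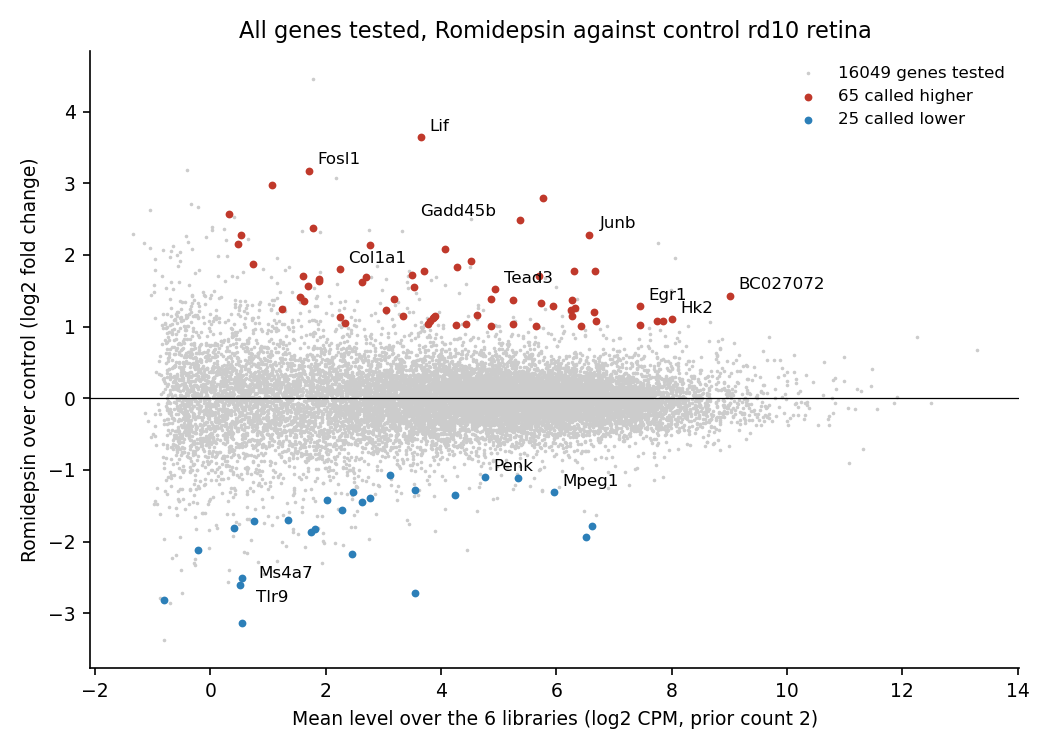
Each point is 1 of the 16049 genes tested, with its mean level over the 6 libraries on the x axis (log2 CPM, prior count 2) and its log2 fold change, Romidepsin over control, on the y axis. Red points are the 65 upregulated and blue points the 25 downregulated genes, and they occur at low and at high levels; Lif at 3.64 and Fosl1 at 3.18 lie near the top, and Tlr9 at -2.61 and Ms4a7 at -2.51 near the bottom.

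The 8 upregulated genes with the smallest p-values had groups that did not overlap. Tead3, a transcription factor of the Hippo pathway on chromosome 17 (chr17:28468616-28487750, NCBIM37, minus strand), was at 15.7, 19.3 and 19.5 CPM in controls 1 to 3 and at 43.0, 58.9 and 54.8 CPM in Romidepsin 1 to 3. The groups did not overlap, and the log2 fold change was 1.52 (SE 0.159, adjusted p = 0.0269 in edgeR's quasi-likelihood test). Rnf207, a RING finger gene, rose from 44.8 to 50.9 CPM in controls to 102 to 146 CPM, by 1.37 on the log2 scale. Arl4d, a small GTPase of the ARF family, stood at 50.2, 45.5 and 60.5 CPM in controls and at 115, 116 and 113 CPM after Romidepsin. All 3 treated libraries were close to each other, and the log2 fold change was 1.14. Epha2, an ephrin receptor, was just as tight, with 9.65, 9.77 and 10.1 CPM against 21.2, 21.3 and 23.2 CPM, a log2 fold change of 1.15. Nxnl2, a thioredoxin-like gene whose product supports photoreceptors, rose by 1.34, from 30.1 to 39.1 CPM in controls to 73.9 to 99.1 CPM. BC027072, a photoreceptor gene and the most abundant of the 8 at 312 to 325 CPM in controls, rose by 1.43. Dio3, which inactivates thyroid hormone, rose by 1.78, with 20.02 to 30.7 CPM after Romidepsin against 6.17 to 8.33 CPM. The eighth, Gadd45b, belongs with the stress genes given later.

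The 8 downregulated genes with the smallest p-values had groups that did not overlap either. Penk, the precursor of enkephalin peptides (chr4:4060678-4065966, NCBIM37, minus strand), was at 34.8, 42.1 and 42.7 CPM in controls and at 18.1, 18.2 and 19.4 CPM after Romidepsin. Every treated library was below every control, and the log2 fold change was -1.10 (SE 0.130, adjusted p = 0.0269). Tlr9, a Toll-like receptor for DNA, dropped from 2.40, 3.85 and 3.37 CPM to 0.566, 0.386 and 0.606 CPM, a log2 fold change of -2.61. Mpeg1, a pore-forming protein of macrophages and microglia, was at 70.8, 118 and 108 CPM in controls and at 41.8, 41.2 and 36.7 CPM after treatment, a log2 fold change of -1.31. Control 1 was the lowest control for Tlr9 and for Mpeg1, and the groups still did not overlap. Igsf6, an immunoglobulin superfamily gene of myeloid cells, fell by 1.71 on the log2 scale, from 2.46 to 3.16 CPM in controls to 0.792 to 0.979 CPM. Clec18a, a C-type lectin, fell by 1.40 (log2), Mob3b, a MOB kinase activator, by 1.29, and Adra2c, an adrenergic receptor, by 1.08. Hist1h4k fell by 2.11, but H4 genes are nearly identical, so its counts of 0.276 to 1.71 CPM are uncertain.

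Among the 25 downregulated genes all were protein-coding, as were 61 of the 65 upregulated genes and 90.7% of all genes tested. The upregulated genes lay on chromosome 11 in 12 of 65 cases (18.5%), where 8.24% of all tested genes lie. Median summed exon lengths were 3286 bases for upregulated, 3471 for downregulated and 3499 for all genes. Among the fifth of genes with the lowest mean level, 14 were upregulated and 10 downregulated, and among the fifth with the highest level 11 and 2. Romidepsin 1 was the treated library nearest to the controls in 53 of the 65 upregulated and 18 of the 25 downregulated genes, beside 1243 of the 2168 and 1209 of the 2006 genes whose groups did not overlap.

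The RefSeq sequences around the gene start of 4 upregulated genes are shown because each holds a binding motif of the stimulus-dependent factors described in the next paragraphs. Each runs from 250 bases before to 50 after the start on GRCm38.p6, and capitals mark the motif. The promoters of the upregulated genes Junb, Fosb, Fos, Nr4a1 and Tead3 were read in the same window. They held none of the motifs marked in capitals below. The GC box of the next paragraph is not among those motifs, and the promoters of Fosb, Fos, Nr4a1 and Tead3 held it. Arl4d (chr11:101665291-101665590, plus strand) and Epha2 (chr4:141300971-141301270, plus strand) hold the cyclic AMP response element TGACGTCA at -26 to -19 and at -33 to -26. Lif (chr11:4257318-4257617, plus strand) holds the AP-1 motif TGACTCA at -228 to -222. Socs3 (chr11:117969317-117969616, minus strand) holds TTCNNNGAA, the core of a STAT site, at -154 to -146.
Arl4d: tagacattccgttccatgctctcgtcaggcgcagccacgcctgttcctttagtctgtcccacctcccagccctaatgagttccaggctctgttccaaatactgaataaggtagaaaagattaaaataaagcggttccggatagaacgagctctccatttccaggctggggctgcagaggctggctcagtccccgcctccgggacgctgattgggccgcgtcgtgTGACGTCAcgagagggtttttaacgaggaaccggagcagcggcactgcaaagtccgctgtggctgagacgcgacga
Epha2: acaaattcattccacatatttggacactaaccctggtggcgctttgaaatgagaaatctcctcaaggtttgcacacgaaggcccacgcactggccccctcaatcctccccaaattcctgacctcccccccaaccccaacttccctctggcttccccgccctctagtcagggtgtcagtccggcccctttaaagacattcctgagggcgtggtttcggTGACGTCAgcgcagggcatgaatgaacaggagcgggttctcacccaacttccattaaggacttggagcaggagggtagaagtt
Lif: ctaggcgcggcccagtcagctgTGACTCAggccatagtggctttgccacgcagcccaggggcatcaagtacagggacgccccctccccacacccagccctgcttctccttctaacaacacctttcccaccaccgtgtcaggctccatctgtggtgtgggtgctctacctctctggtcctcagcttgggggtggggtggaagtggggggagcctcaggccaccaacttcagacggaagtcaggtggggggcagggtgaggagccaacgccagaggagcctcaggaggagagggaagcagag
Socs3: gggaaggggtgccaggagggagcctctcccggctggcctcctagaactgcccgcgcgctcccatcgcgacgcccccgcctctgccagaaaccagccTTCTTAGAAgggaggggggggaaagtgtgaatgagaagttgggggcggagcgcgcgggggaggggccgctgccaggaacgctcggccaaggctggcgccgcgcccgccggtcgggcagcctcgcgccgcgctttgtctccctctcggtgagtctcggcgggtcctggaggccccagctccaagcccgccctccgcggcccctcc

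Over all promoters of the tested genes in the table, 11841 in number, both strands read, 3.19% held TGACGTCA, 3.37% held the AP-1 motif (TGACTCA or TGAGTCA), 6.62% held TTCNNNGAA and 63.1% the GC box GGGCGG. The table held 44 of the 65 upregulated genes, under 80%, so a share over those genes is void. It held 22 of the 27 immediate-early genes, of which 2 held TGACGTCA (9.09%), none the AP-1 motif and 17 the GC box (77.3%), with a median of 25.5 CpG dinucleotides against 20 over all. Of the 25 downregulated genes 20 were in the table, 3 held the GC box (15%), and their median CpG count was 5.5. These matches are letters in a window of 300 bases and say nothing of binding.

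Immediate-early genes, which stimuli switch on within minutes and which encode mostly AP-1 and zinc finger transcription factors, were the list with the most genes passing the test. Of 27 tested, 11 rose and none fell at an adjusted p under 0.05, and 10 of the 11 passed the fold threshold. At an unadjusted p under 0.05, 22 were higher and none lower, against 9.92% and 9.46% over all genes, and 19 passed the likelihood ratio test. The median log2 fold change was 0.87, where that over all genes was -0.01, and in 20 members every treated library was above every control. Over all genes 0.573% rose at the adjusted p, 0.405% with the fold threshold added, and 4.09% by the likelihood ratio test. In 13.5% of all genes every treated library was above every control.

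Among the AP-1 subunits, Fosl1 (chr19:5447703-5455945, NCBIM37, plus strand) was at 1.10, 1.39 and 0.791 CPM in controls and at 4.75, 14.7 and 10.3 CPM after Romidepsin. It changed most of the list, by 3.18 on the log2 scale (SE 0.437, adjusted p = 0.0277 in edgeR's quasi-likelihood test). Junb was at 33.2, 62.9 and 38.3 CPM against 134.5, 277 and 244 CPM, a log2 fold change of 2.28 (SE 0.315, adjusted p = 0.0277). Romidepsin 1 was the lowest treated library and was still above the highest control for both genes. Fos itself was at 38.5, 53.5 and 39.8 CPM in controls and at 94.6, 149 and 208 CPM after treatment, a log2 fold change of 1.78, and Fosb rose by 1.55, from 6.17 to 7.32 CPM in controls to 13.7 to 24.2 CPM. Jun was at 62.0 to 74.5 CPM against 91.7 to 142 CPM, with a log2 fold change of 0.87 that did not pass (adjusted p = 0.0588).

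The zinc finger and nuclear receptor members behaved alike. Egr1 was at 117, 127.5 and 96.8 CPM in controls and at 196, 302 and 331 CPM after Romidepsin, a log2 fold change of 1.28 (SE 0.203, adjusted p = 0.0361). Every treated library exceeded every control. Egr2 rose by 1.70 and Nr4a1, an orphan nuclear receptor, by 1.27 on the log2 scale. Ier3, which limits apoptosis, rose by 1.70, Ier2 by 1.38, Maff, a small MAF factor, by 1.57 and Btg2, an antiproliferative gene, by 0.68. Arc, a synaptic plasticity gene, at 1.36 (adjusted p = 0.0638), Atf3, a stress factor of the ATF family, at 1.47 (adjusted p = 0.0561) and Dusp1, a MAP kinase phosphatase, at 0.55 (adjusted p = 0.0588) missed the threshold. In 17 of the 20 members whose groups did not overlap, Romidepsin 1 was the treated library nearest to the controls.

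Growth arrest genes showed 1 clear member. Gadd45b, a stress sensor that activates MAP kinases (chr10:80392836-80394949, NCBIM37, plus strand), was at 13.3, 21.2 and 19.8 CPM in controls and at 59.6, 127 and 118 CPM after Romidepsin. The lowest treated value was above the highest control, and the log2 fold change was 2.49 (SE 0.298, adjusted p = 0.0269). It was the only one of 15 tested growth arrest and p53 genes to pass, with a list median of 0.30. At an unadjusted p under 0.05, 6 members were higher and 2 lower, beside 9.92% and 9.46% of all genes. Gadd45a was at 16.7 to 21.8 CPM against 27.0 to 38.0 CPM (log2 fold change 0.84, adjusted p = 0.0634). Myc was at 0.821, 2.30 and 2.00 CPM against 4.75, 10.8 and 10.4 CPM, with a log2 fold change of 2.31 just outside the threshold (adjusted p = 0.0502).

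Inhibitors of cyclin-dependent kinases, classical responders to deacetylase inhibition, had a median of 0.75 over 6 tested genes. None passed the adjusted quasi-likelihood test, 4 were higher at an unadjusted p under 0.05, and the likelihood ratio test and DESeq2 passed 4 each. The shares of all genes higher by the last 3 criteria were 9.92%, 4.09% and 3.71%. Cdkn1a (p21) was at 9.45, 16.5 and 13.9 CPM in controls and at 18.4, 39.1 and 62.8 CPM after Romidepsin, a log2 fold change of 1.59 (SE 0.399, adjusted p = 0.0849). Cdkn2c (0.89, adjusted p = 0.0595) and Cdkn1c (0.62, adjusted p = 0.0722) had smaller fold changes and a narrower spread. The 16 proliferation genes had a median of -0.23, and of 0.10 without control 2. None of them passed the adjusted quasi-likelihood test, 1 was higher at an unadjusted p under 0.05, and the likelihood ratio test and DESeq2 each passed that many.

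Genes of reactive gliosis, the response of Müller glia and astrocytes to injury, had a median log2 fold change of 0.84 over 21 tested. Of these 3 rose and none fell at the adjusted p, 12 were higher at an unadjusted p under 0.05, and the likelihood ratio test passed 10, where the shares over all genes were 0.573%, 9.92% and 4.09%. The median was 0.56 without control 1. The 3 that rose are known as parts or targets of LIF, JAK and STAT3 signalling, which was not measured here. Lif, the cytokine itself (chr11:4157560-4172517, NCBIM37, plus strand), was at 3.35, 5.34 and 2.69 CPM in controls and at 19.4, 65.8 and 57.7 CPM after Romidepsin, the largest log2 fold change of the upregulated genes, 3.64 (SE 0.469, adjusted p = 0.0277), or 12.5-fold. Socs3, which is induced by STAT3 and blocks its signalling, was at 14.0, 33.9 and 19.7 CPM against 71.7, 203 and 194.5 CPM (2.79, SE 0.437, adjusted p = 0.0354). Cebpd, a C/EBP transcription factor of acute phase responses, was at 45.9, 74.1 and 49.3 CPM against 129.6, 242 and 211 CPM (1.78, adjusted p = 0.0308). The order of the libraries was shared by these genes: control 2 was the highest control and Romidepsin 1 the lowest treated library for all 3, and the groups did not overlap. Romidepsin 1 was nearest to the controls in 53 of the 65 upregulated genes, so its place is not particular to these 3.

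Other members of the list did not pass. Bcl3, an NF-kB cofactor, was at 5.54, 16.6 and 9.23 CPM against 30.5, 86.1 and 62.4 CPM (a log2 fold change of 2.502, adjusted p = 0.0502), Nes, the intermediate filament nestin, at 1.26 (adjusted p = 0.0529) and Stat3 at 0.66 (adjusted p = 0.0813). Gfap, the usual marker of gliosis, was at 178, 494 and 330 CPM in controls and at 377, 454 and 380 CPM after Romidepsin. Its groups overlapped, with a log2 fold change of 0.27 (SE 0.305, adjusted p = 0.667). Lrg1, a glycoprotein under STAT3 chosen here after its values were seen, rose by 2.98, from 0.411 to 0.961 CPM in controls to 3.39 to 8.71 CPM.

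**Figure D2:**
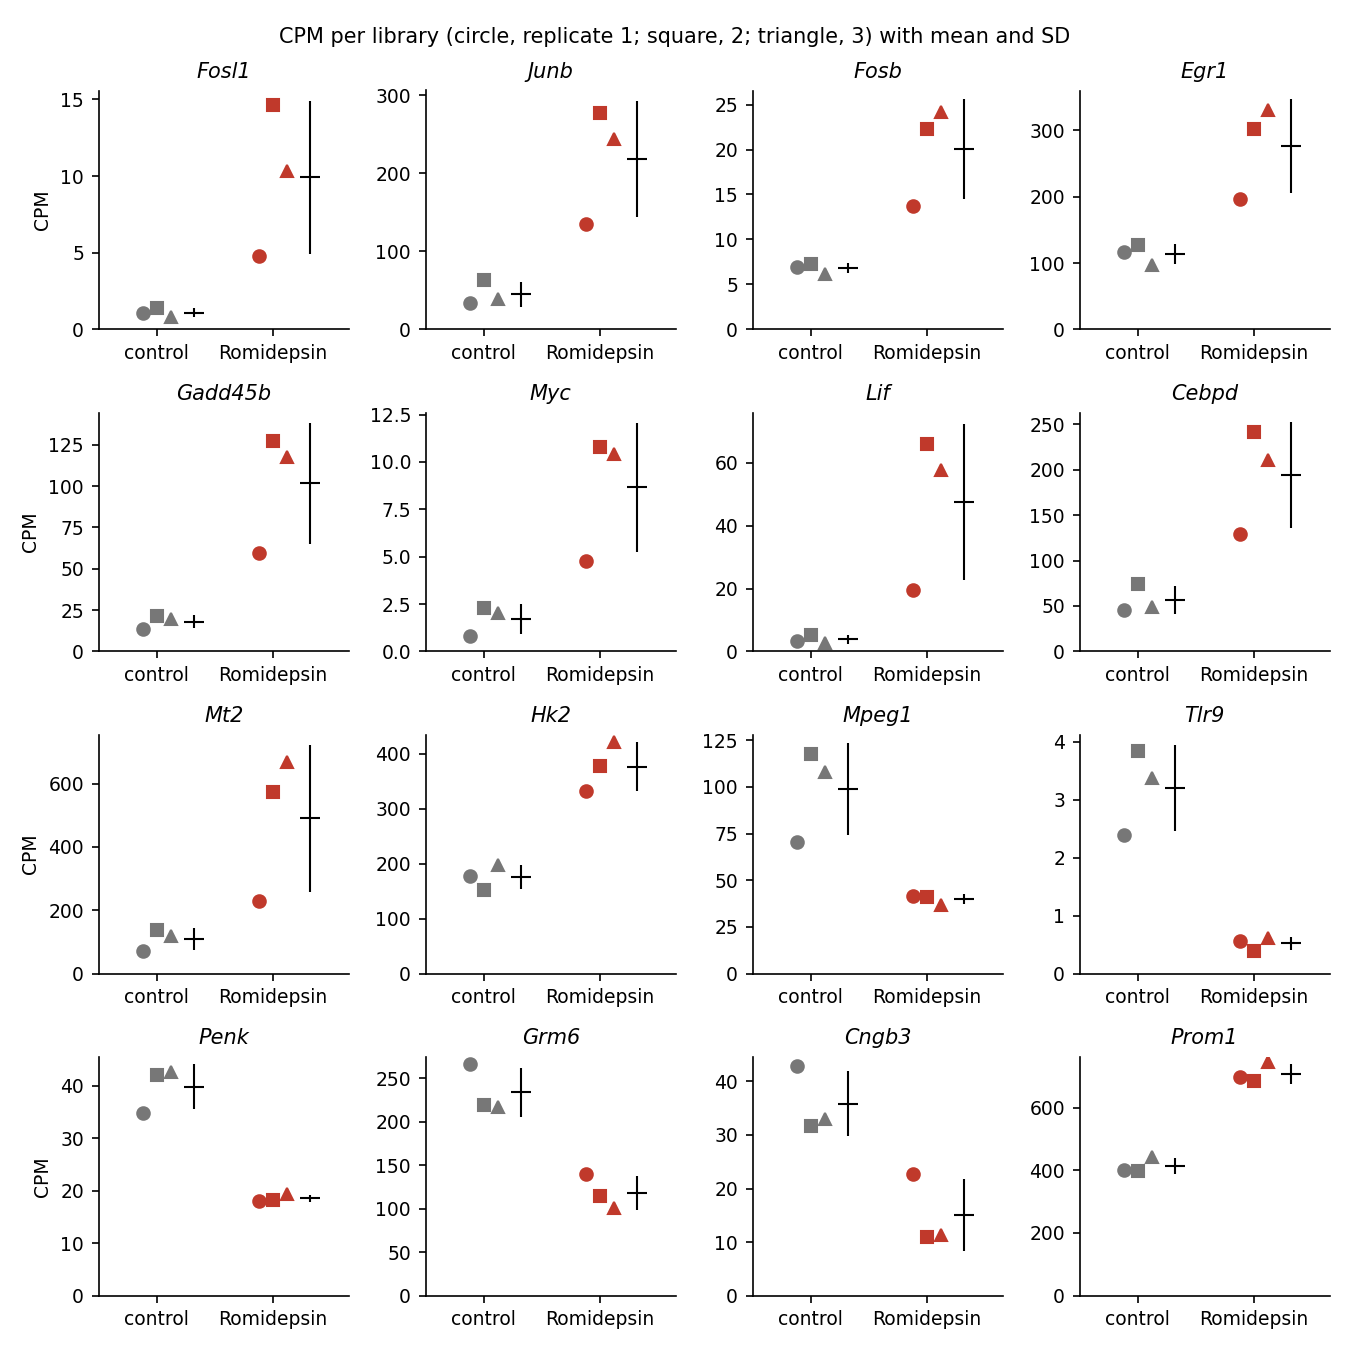
CPM of 16 genes in each control (grey) and Romidepsin (red) library, with a circle for replicate 1, a square for replicate 2 and a triangle for replicate 3, and beside them the mean and SD of each group of 3; each y axis starts at 0. In the panels of Fosl1, Junb, Gadd45b, Lif and Mt2 the Romidepsin circle is the lowest red symbol and still lies above every grey one.

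Genes of mature Müller glia had a median of -0.40 over 16 tested, none passed the adjusted test, and 10 were lower and 1 higher at an unadjusted p under 0.05. By the likelihood ratio test 6 were lower and by DESeq2 8, with 1 higher in each. The shares over all genes were 9.46% lower and 9.92% higher at the unadjusted p, and 3.29% and 2.98% lower by the likelihood ratio test and DESeq2. Glul, glutamine synthetase, was at 3896, 2623 and 3448 CPM in controls and at 2428, 1798 and 1879 CPM (-0.71, adjusted p = 0.0857). Rlbp1, which carries visual cycle retinoid, was at 592 to 700 CPM against 350 to 459 CPM (-0.66, adjusted p = 0.0620). The 1 higher member, 1700027L20Rik, named Prss56 in newer annotation and coding for a serine protease, was at 0, 0.748 and 2.32 CPM in controls and at 6.68, 27.7 and 36.8 CPM after Romidepsin (adjusted p = 0.0564). Of the 21 neurotrophic and protective factors none passed, the median was 0.20, and 5 were higher and 1 lower at an unadjusted p under 0.05, with 4 higher by the likelihood ratio test and by DESeq2. Over all genes 4.09% were higher by the likelihood ratio test and 3.71% by DESeq2. Clcf1, a cytokine of the CNTF receptor, was at 4.52 to 5.18 CPM against 7.86 to 13.3 CPM (1.18, adjusted p = 0.0551).

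Rod genes had small fold changes, most of them above 0. Of 38 tested phototransduction and outer segment genes, 1 rose and none fell at the adjusted p, 19 were higher and none lower at an unadjusted p under 0.05, and the median was 0.39. Over all genes 9.92% were higher at that p. In 16 members every treated library exceeded every control, where 13.5% of all genes did, and 13 passed the likelihood ratio test, where 4.09% did. The median was 0.25 without Romidepsin 1 and 0.26 with sex as a term. In bulk retina a change in the number of cells of a type and a change in RNA per cell cannot be told apart. This holds for rods and for every other cell type list. Prom1, which shapes the disc membranes of the outer segment, was at 402, 397 and 441 CPM in controls and at 696, 683 and 744 CPM after Romidepsin. It rose by 0.78 on the log2 scale (SE 0.109, adjusted p = 0.0277), with little spread in either group.

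Other rod genes missed the quasi-likelihood threshold. Pdc, phosducin, was at 627, 463 and 769 CPM in controls and at 1138, 1119 and 1090 CPM after Romidepsin, with a log2 fold change of 0.85 (SE 0.176, adjusted p = 0.0638). Every treated library was above every control, the controls spread more widely than the treated libraries, and the likelihood ratio test passed the gene (adjusted p = 0.00159). Guca1b, a guanylate cyclase activator, was at 268, 209 and 372 CPM against 639, 618 and 525 CPM (1.07, adjusted p = 0.0561). Pde6b, the gene mutated in rd10, was at 469 to 733 CPM against 894 to 1041 CPM (0.65, adjusted p = 0.0894). Gnat1, rod transducin, was at 3844, 2861 and 5203 CPM against 5558, 3602 and 2913 CPM, with groups that overlapped (0.02, adjusted p = 0.978). Aipl1, a chaperone of PDE6, at 0.60, Guca1a, a second cyclase activator, at 0.77 and Ptp4a3, a phosphatase, at 0.82 were also outside the threshold.

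Transcription factors of photoreceptors had a median of 0.41 over 14 tested, and none passed the adjusted test. At an unadjusted p under 0.05, 9 were higher and 1 lower, with 4 higher by the likelihood ratio test and 6 by DESeq2. The shares over all genes were 9.92% higher and 9.46% lower at that p, and 4.09% and 3.71% higher by the likelihood ratio test and DESeq2. Nr2e3, which represses cone genes in rods, was at 210, 206 and 302 CPM in controls and at 455, 374 and 357 CPM after Romidepsin (0.72, adjusted p = 0.0814). Esrrb, a nuclear receptor of rods, was at 121 to 184 CPM against 280.0 to 368 CPM (0.96, adjusted p = 0.0571). Their groups did not overlap. The 16 ribbon synapse genes had a median of -0.07, with none past the adjusted quasi-likelihood test, 1 higher and 1 lower at an unadjusted p under 0.05, and 1 higher by each of the other 2 tools.

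Cone genes lay on the other side. Of 16 tested none passed the adjusted test, 10 were lower and none higher at an unadjusted p under 0.05, 7 were lower by the likelihood ratio test and 6 by DESeq2, where 9.46%, 3.29% and 2.98% of all genes were lower, and the median was -0.71. Pde6c, the cone phosphodiesterase, was at 153, 172 and 133 CPM in controls and at 107, 87.0 and 84.9 CPM after Romidepsin (-0.72, adjusted p = 0.0577). Cngb3, a subunit of the cone channel, was at 42.9, 31.7 and 33.0 CPM against 22.8, 10.98 and 11.3 CPM (-1.26, adjusted p = 0.0710). In both genes Romidepsin 1 was the highest treated library, and the groups did not overlap. Arr3, cone arrestin, was at 296, 144 and 172 CPM against 124, 45.0 and 29.5 CPM (-1.62, SE 0.497, adjusted p = 0.125). Opn1mw, the medium-wavelength opsin, was at 177 to 242 CPM against 74.7 to 155.5 CPM (-1.03, adjusted p = 0.0873), and Gnat2, cone transducin, was at 142 to 166.5 CPM against 64.1 to 119 CPM (-0.84, adjusted p = 0.0844).

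Genes of inner retinal neurons had smaller negative medians. Of 15 bipolar genes 1 fell at the adjusted p and 13 were lower at an unadjusted p under 0.05, with none higher, against 9.46% and 9.92% of all genes, a median of -0.51 and fold changes all under 0. Grm6, the glutamate receptor of ON bipolar cells (chr11:50664187-50679710, NCBIM37, plus strand), was at 266.5, 219 and 217 CPM in controls and at 139.7, 115 and 101 CPM after Romidepsin. It fell by 0.98 on the log2 scale (SE 0.152, adjusted p = 0.0338), and every treated library was below every control. Of 18 amacrine and horizontal genes 9 were lower at an unadjusted p under 0.05 (median -0.29), and of 13 ganglion cell genes 8 (median -0.36), with none past the adjusted threshold of the quasi-likelihood test. The likelihood ratio test and DESeq2 each had 1 amacrine or horizontal gene and 5 ganglion cell genes lower, where 3.29% and 2.98% of all genes were lower. Pou4f1, a ganglion cell transcription factor, was at 53.5 to 65.0 CPM against 39.0 to 40.4 CPM (-0.53, adjusted p = 0.0705). Lhx1, a horizontal cell factor, was at 13.3 to 18.7 CPM against 6.40 to 11.1 CPM (-1.003, adjusted p = 0.0829).

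Microglial genes had a median of -0.73 over 26 tested. At the adjusted p 2 fell and none rose, and 1 of them passed the fold threshold. At an unadjusted p under 0.05, 15 were lower and none higher, and 12 were lower by the likelihood ratio test, where 9.46% and 3.29% of all genes were lower. The genes that fell were Mpeg1, given above, and Ctss, a lysosomal protease, at 95.1, 102 and 139 CPM in controls and 56.7, 65.5 and 59.3 CPM after Romidepsin (-0.89, SE 0.158, adjusted p = 0.0493). Csf1r, the receptor that microglia need to survive, was at 72.9, 98.8 and 109 CPM against 55.7, 56.0 and 43.0 CPM (-0.86, adjusted p = 0.0601). P2ry12, a purinergic receptor of resting microglia, was at 7.21 to 10.1 CPM against 2.70 to 5.15 CPM (-1.22, adjusted p = 0.0656), and Cx3cr1, the fractalkine receptor, at 32.7 to 48.2 CPM against 21.2 to 25.7 CPM (-0.77, adjusted p = 0.0656). For Mpeg1, Ctss, Csf1r and Cx3cr1 control 1 was the lowest control, and the groups did not overlap.

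Of 18 genes of phagocytic, disease-associated microglia 1 fell and none rose, and the median was -0.02. At an unadjusted p under 0.05, 4 were higher and 6 lower, beside 9.92% and 9.46% of all genes. Ms4a7, a membrane gene of macrophages, was at 2.26, 3.85 and 3.90 CPM in controls and at 0.622, 0.938 and 0.233 CPM after Romidepsin (-2.51, SE 0.437, adjusted p = 0.0490). Apoe, the lipid carrier, was at 3180, 2362 and 3449 CPM against 1609, 1920 and 1296 CPM (-0.90, adjusted p = 0.0638). The chemokine Ccl6 lay the other way, at 1.23 to 2.88 CPM against 4.13 to 8.99 CPM (1.76, adjusted p = 0.0651).

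Lists of immune pathways had few or no members past the test. In the list of NF-kB, cytokine and Toll-like receptor genes 1 of 25 fell and none rose (median 0.17). That gene was Tlr7, a receptor for RNA, at 4.04, 8.12 and 7.43 CPM in controls and 2.15, 1.99 and 1.45 CPM after Romidepsin (-1.82, SE 0.306, adjusted p = 0.0446). Nfkbia, the inhibitor that NF-kB itself induces, was at 29.6 to 34.2 CPM against 41.1 to 69.1 CPM (0.87, adjusted p = 0.0705). Of 18 MHC and antigen presentation genes none passed, 6 were lower at an unadjusted p under 0.05, 6 by the likelihood ratio test and 4 by DESeq2 (median -0.56). The shares of all genes lower by these criteria were 9.46%, 3.29% and 2.98%. B2m, the light chain of MHC class I, was at 192, 346 and 411 CPM against 114, 174 and 141 CPM (-1.15, adjusted p = 0.0784). Of 15 complement genes none passed, 5 were lower at an unadjusted p under 0.05 and 1 by each of the likelihood ratio test and DESeq2 (median -0.42).

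Interferon response genes varied widely between controls. None of 30 passed the adjusted quasi-likelihood test, and 8 were lower and 2 higher at an unadjusted p under 0.05. By the likelihood ratio test 4 were lower and by DESeq2 3, and no member had groups that did not overlap. Among all genes 9.46% were lower and 9.92% higher at that unadjusted p, and 3.29% and 2.98% lower by the likelihood ratio test and DESeq2. Every treated library lay below every control in 12.5% of all genes and above in 13.5%. The median of the list was -0.83, and it was -1.25 without control 1 and -0.26 without control 2. Oas1a, a sensor of double-stranded RNA, was at 1.92, 13.0 and 11.3 CPM in controls and at 2.32, 2.37 and 1.82 CPM after Romidepsin (-2.02, adjusted p = 0.109). Isg15, a ubiquitin-like protein, was at 8.42, 52.6 and 37.5 CPM against 6.34, 13.7 and 7.27 CPM (-1.86, adjusted p = 0.127). Control 1 was at the level of the treated libraries for both, and controls 2 and 3 were above them.

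**Figure D3:**
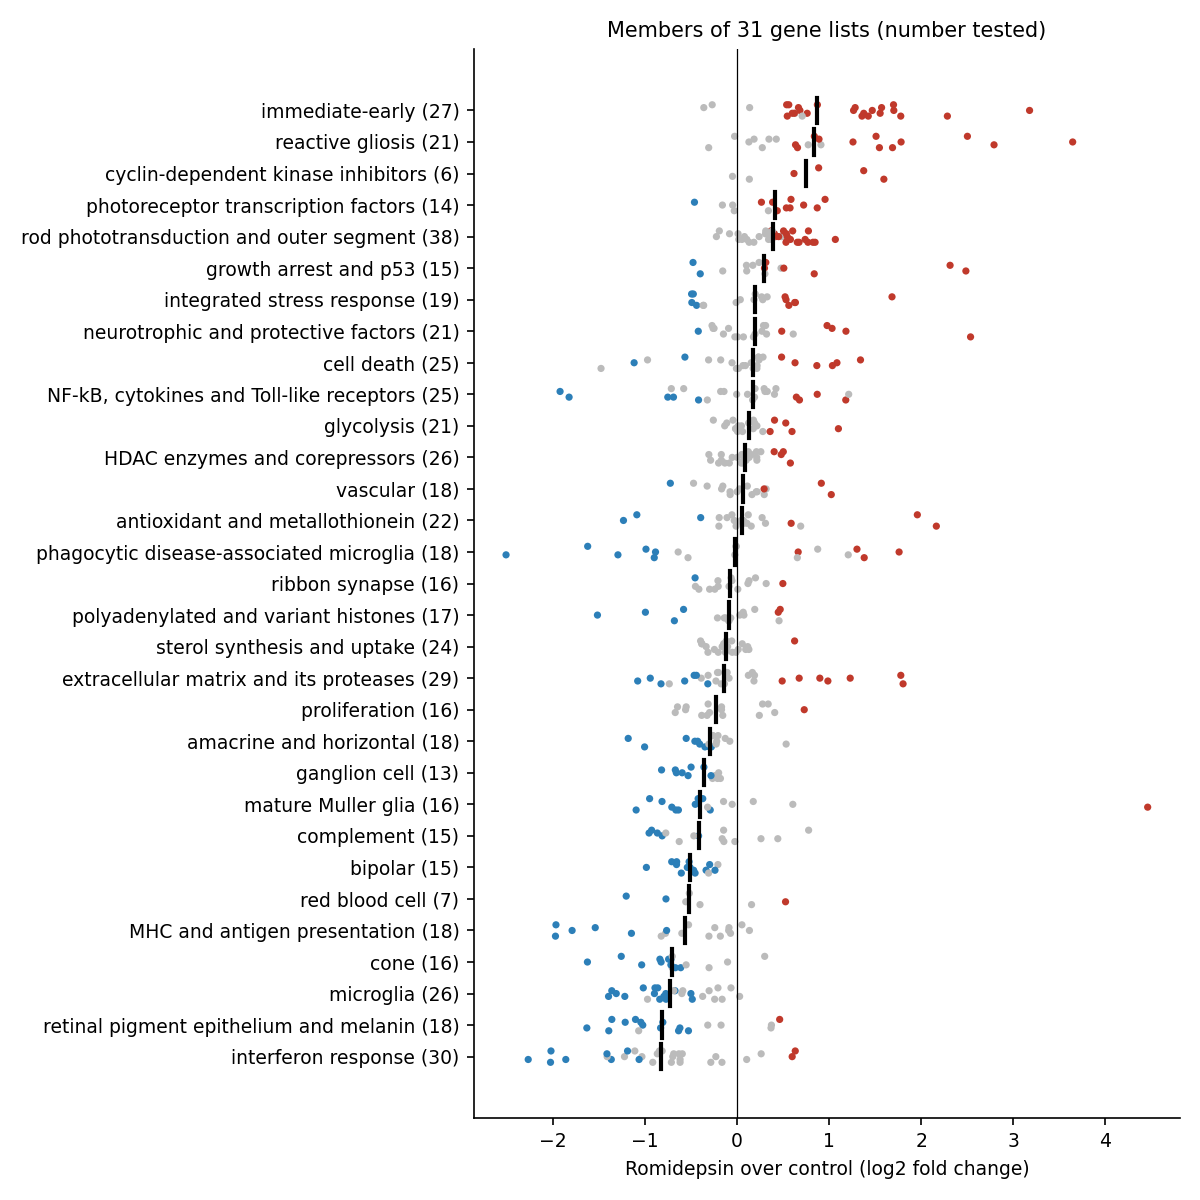
Log2 fold changes (Romidepsin over control) of the tested members of the gene lists, 1 line per list with the number of members tested in parentheses and a black bar at the list's median; the lens list is not drawn. Red and blue points are members higher or lower at an unadjusted p under 0.05 in the quasi-likelihood test and grey points the others; the immediate-early median lies at 0.87 and the interferon median at -0.83.

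Markers of tissue next to the retina differed in level between the groups without passing the adjusted test. Of 18 tested genes of the retinal pigment epithelium (RPE) and melanin none passed the adjusted test, and the median was -0.82. At an unadjusted p under 0.05, 12 were lower and 1 higher, and 11 were lower by the likelihood ratio test and 10 by DESeq2. Among all genes 9.46% were lower and 9.92% higher at that p, and 3.29% and 2.98% lower by the likelihood ratio test and DESeq2. The summed level of the RPE and melanin genes was 339.5 to 358 CPM in controls and 286 to 297 CPM after Romidepsin. Rpe65, the retinoid isomerase, was at 6.02, 5.45 and 5.11 CPM against 2.43, 2.76 and 1.17 CPM (-1.39, adjusted p = 0.0666), and Dct, a melanin enzyme, was at 28.3, 29.2 and 32.4 CPM against 12.0, 15.8 and 7.37 CPM (-1.36, adjusted p = 0.0515). Of the lens genes 6 of 16 were tested and the others lay under the count filter, with a median of -0.26, 1 gene lower at an unadjusted p under 0.05 and none past the adjusted test of any of the 3 tools. The 7 red blood cell genes had a median of -0.52 (-0.25 without Romidepsin 3) with none past the adjusted quasi-likelihood test, 2 lower and 1 higher at an unadjusted p under 0.05, and 2 lower by each of the other tools. Hbb-b1, a beta globin with a near-identical paralog, was at 59.9, 51.3 and 60.1 CPM against 29.5, 41.5 and 29.4 CPM (-0.77, adjusted p = 0.0638). The part of RPE or blood left on the dissected retina in the other results was not tested.

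Extracellular matrix genes had a median of -0.14 over 29 tested, with 7 higher and 7 lower at an unadjusted p under 0.05 and 1 that rose at the adjusted p. By each of the likelihood ratio test and DESeq2 6 were higher and 4 lower. Of all genes 9.92% were higher and 9.46% lower at the unadjusted p, and 0.573% rose at the adjusted p. By the likelihood ratio test 4.09% of all genes were higher and 3.29% lower, and by DESeq2 3.71% and 2.98%. Col1a1, a chain of type I collagen, was at 2.74, 2.03 and 2.74 CPM in controls and at 7.35, 8.55 and 10.3 CPM after Romidepsin (1.80, SE 0.219, adjusted p = 0.0269). Col1a2, the other chain of that collagen, was at 40.9, 61.4 and 43.9 CPM against 30.6, 19.6 and 19.1 CPM (-1.08, adjusted p = 0.0638). The 2 chains thus had opposite signs, with groups that did not overlap in either. Adamts1, a secreted protease, was at 48.8 to 61.7 CPM against 85.0 to 163 CPM (1.23, adjusted p = 0.0515). The 18 vascular genes had a median of 0.07 and none passed. At an unadjusted p under 0.05, 3 were higher and 1 lower, and by the likelihood ratio test and DESeq2 2 and 1. Among them was Kdr, a VEGF receptor, at 520 to 695.5 CPM against 322 to 410 CPM (-0.72, adjusted p = 0.0634).

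The targets of the drug kept their transcript levels within a narrow range. Of 26 genes of HDAC enzymes and their corepressors none passed the adjusted quasi-likelihood test, with a median of 0.09. At an unadjusted p under 0.05, 4 were higher, and 1 was higher by each of the likelihood ratio test and DESeq2. The shares of all genes at that unadjusted p were 9.92% higher and 9.46% lower. By the likelihood ratio test they were 4.09% and 3.29%, and by DESeq2 3.71% and 2.98%. Hdac1, the deacetylase for which the study used the drug, was at 48.5, 54.5 and 55.9 CPM against 52.9, 63.8 and 47.4 CPM (0.05, SE 0.138, adjusted p = 0.887). Hdac2, its close relative, was at 71.3 to 81.6 CPM against 68.8 to 94.0 CPM (0.10, adjusted p = 0.737). Both overlapped between the groups. Mta2, a subunit of the NuRD complex, was at 125, 116 and 132 CPM against 182, 170.4 and 176 CPM (0.50, adjusted p = 0.0656). The drug acts on the enzymes, and neither their activity nor histone acetylation was measured in these libraries. Of 17 polyadenylated and variant histone genes none passed, 2 were higher and 4 lower at an unadjusted p under 0.05, 4 were lower by each of the likelihood ratio test and DESeq2, and the median was -0.09.

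Metabolic and stress lists had medians near that of all genes. Hk2, a hexokinase of photoreceptors, was at 178, 152 and 197 CPM in controls and at 332, 377 and 421 CPM after Romidepsin, and rose by 1.10 on the log2 scale (SE 0.142, adjusted p = 0.0277). It was the 1 gene of 21 in glycolysis to pass, with 5 higher at an unadjusted p under 0.05 and a median of 0.13. The share of all genes higher was 0.573% at the adjusted p and 9.92% at the unadjusted p. Hk1, the broadly expressed hexokinase, was at 864 to 973 CPM against 1232 to 1456 CPM (0.60, adjusted p = 0.0588). Of 25 cell death genes 1 rose, with a median of 0.18. It was Bmf, a BH3-only gene that promotes apoptosis, at 28.7, 28.9 and 22.5 CPM against 44.1, 64.7 and 55.4 CPM (1.04, SE 0.171, adjusted p = 0.0411).

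The integrated stress response (19 genes, median 0.20), antioxidant and metallothionein genes (22, median 0.06) and sterol synthesis and uptake (24, median -0.12) had no member past the adjusted test, and 6, 3 and 1 were higher and 4, 3 and none lower at an unadjusted p under 0.05. By the likelihood ratio test 2, 3 and 1 were higher and 1, 2 and none lower, and by DESeq2 1, 3 and 1 and 2, 2 and none. The shares of all genes at the unadjusted p were 9.92% higher and 9.46% lower. By the likelihood ratio test they were 4.09% and 3.29%, and by DESeq2 3.71% and 2.98%. Mt2, a metallothionein, was at 71.5, 139 and 117 CPM in controls and at 229, 572.5 and 669 CPM after Romidepsin (2.16, SE 0.390, adjusted p = 0.0505). Its groups did not overlap. Selenbp1, a selenium-binding protein, was at 9.04 to 11.2 CPM in controls and at 18.5, 19.5 and 54.3 CPM after treatment, so 1 library set much of its mean (1.57, adjusted p = 0.0857). Rabgef1, a regulator of endosome traffic, was at 66.7 to 90.6 CPM against 53.7 to 95.5 CPM, and the groups overlapped (-0.21, adjusted p = 0.648).

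Scores of the lists, the mean log2 CPM over the tested members in a library, show the same per library. The immediate-early score was 3.77 ± 0.132 in controls and 4.78 ± 0.249 after Romidepsin (SD, n = 3), and the reactive gliosis score 5.65 ± 0.526 and 6.76 ± 0.335. Rods scored 8.88 ± 0.213 and 9.27 ± 0.208, cones 6.55 ± 0.192 and 5.82 ± 0.372, and bipolar cells 7.15 ± 0.0824 and 6.64 ± 0.106. Microglia scored 4.56 ± 0.363 and 3.88 ± 0.254, the RPE 3.21 ± 0.0765 and 2.52 ± 0.147, and the interferon response 4.70 ± 1.28 and 4.16 ± 0.369. The SD of the interferon score in controls was larger than the difference between the groups.

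**Figure D4:**
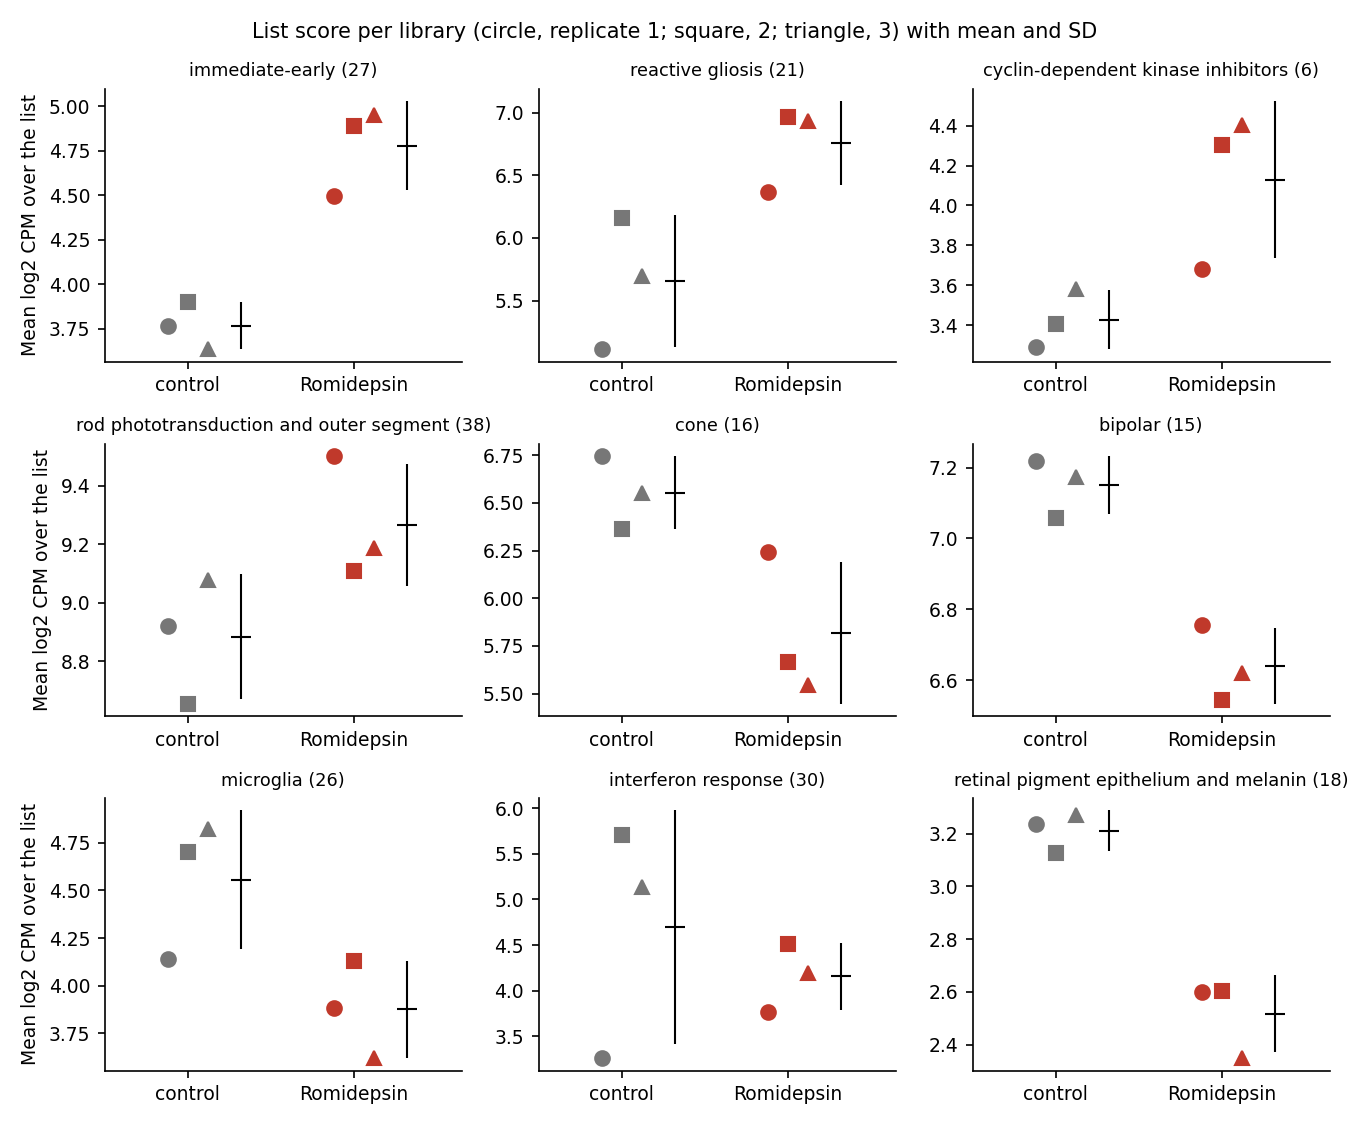
Mean log2 CPM over the tested members of 9 lists in each library (grey, control; red, Romidepsin; circle, square and triangle for replicates 1, 2 and 3), with the mean and SD of each group of 3; the y axes do not start at 0. The immediate-early, bipolar and RPE scores of the groups lie far apart, and in the interferon panel control 1, the grey circle, lies away from the other 2 controls.

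The Romidepsin libraries carry the same library series number as those of DZNep, an inhibitor that lowers EZH2 (2 treated, 4 controls), and UNC0642, an inhibitor of the histone methyltransferases EHMT2 and EHMT1 (2 treated, 2 controls), each with its own controls. The drugs were not given at matched doses, and the schedules differed. Romidepsin was given daily, while the paper reports that DZNep was daily only at first and later every other day at a lower dose. The part of schedule or of time since the last dose in the differences was not tested. A fit over all 16 libraries and 17087 genes tested the difference of the effects. The Romidepsin effect was above the DZNep effect in 86 genes (0.503%) and below it in 35 (0.205%) at an adjusted p under 0.05, and above the UNC0642 effect in 1 (0.00585%) and below it in 2 (0.0117%). For UNC0642 the likelihood ratio test gave 152 and 62 and DESeq2 155 and 76.

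Against DZNep the difference covered immediate-early and gliosis genes. Of the 27 immediate-early genes 9 had an effect of Romidepsin above that of DZNep, as did 8 of the 21 gliosis genes, and none lay below. Over all genes 0.503% lay above and 0.205% below. These calls depended on single libraries: without control 3 of the Romidepsin experiment, 1 gene lay above and 1 below over all genes. Egr1 had the smallest p: it was at 113 ± 16.7 CPM in Romidepsin controls and 273 ± 70.2 CPM after Romidepsin (SD, n = 3), but at 166 ± 26.2 CPM in DZNep controls (n = 4) and 48.4 ± 0.778 CPM after DZNep (n = 2). The effects differed by 3.05 on the log2 scale (SE 0.276, adjusted p = 0.000345 in edgeR's quasi-likelihood test). Lif was at 3.49 ± 0.637 CPM in DZNep controls and 3.61 ± 0.387 CPM after DZNep, close to the 3.77 ± 1.42 CPM of Romidepsin controls, and the effects differed by 3.57 (SE 0.735, adjusted p = 0.0441). Fosl1 differed by 4.00 and Cebpd by 2.06, both with an adjusted p of 0.0223.

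On the other side 6 of 18 RPE genes had a Romidepsin effect below that of DZNep, where 0.205% of all genes did. Stra6, the receptor for the retinol carrier, was at 10.99 ± 0.426 CPM in controls and 6.28 ± 0.965 CPM after Romidepsin, and at 10.6 ± 2.90 CPM and 29.6 ± 0.808 CPM without and with DZNep (difference -2.28, SE 0.284, adjusted p = 0.00913). For rods, with medians of 0.39 after Romidepsin and 0.98 after DZNep, and for microglia, with -0.73 and -0.79, no gene was among those that differed, which does not show that the drugs act alike.

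Against UNC0642 the 3 genes were Tead3, at 33.2 ± 2.35 CPM in UNC0642 controls and 36.3 ± 5.73 CPM after UNC0642 (difference 1.39), Kif4, a mitotic kinesin (-2.78), and Pgc, a protease precursor (-2.05), all with an adjusted p of 0.0408. Kif4 was at 7.49 ± 0.659 CPM and 2.98 ± 0.921 CPM without and with Romidepsin, but at 2.89 ± 0.388 CPM and 7.88 ± 0.984 CPM without and with UNC0642 (n = 2). The control groups of the experiments therefore differed at the start. For Lif, the UNC0642 controls were at 28.2 ± 16.1 CPM and the treated at 46.3 ± 25.9 CPM, close to the 47.1 ± 24.5 CPM after Romidepsin. Fosl1 was at 4.53 ± 0.125 CPM in UNC0642 controls and 15.2 ± 0.194 CPM after UNC0642, against 1.08 ± 0.309 and 9.79 ± 4.92 CPM in the Romidepsin experiment. No member of a list was among the 3 genes, and each UNC0642 group has 2 libraries.

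**Figure D5:**
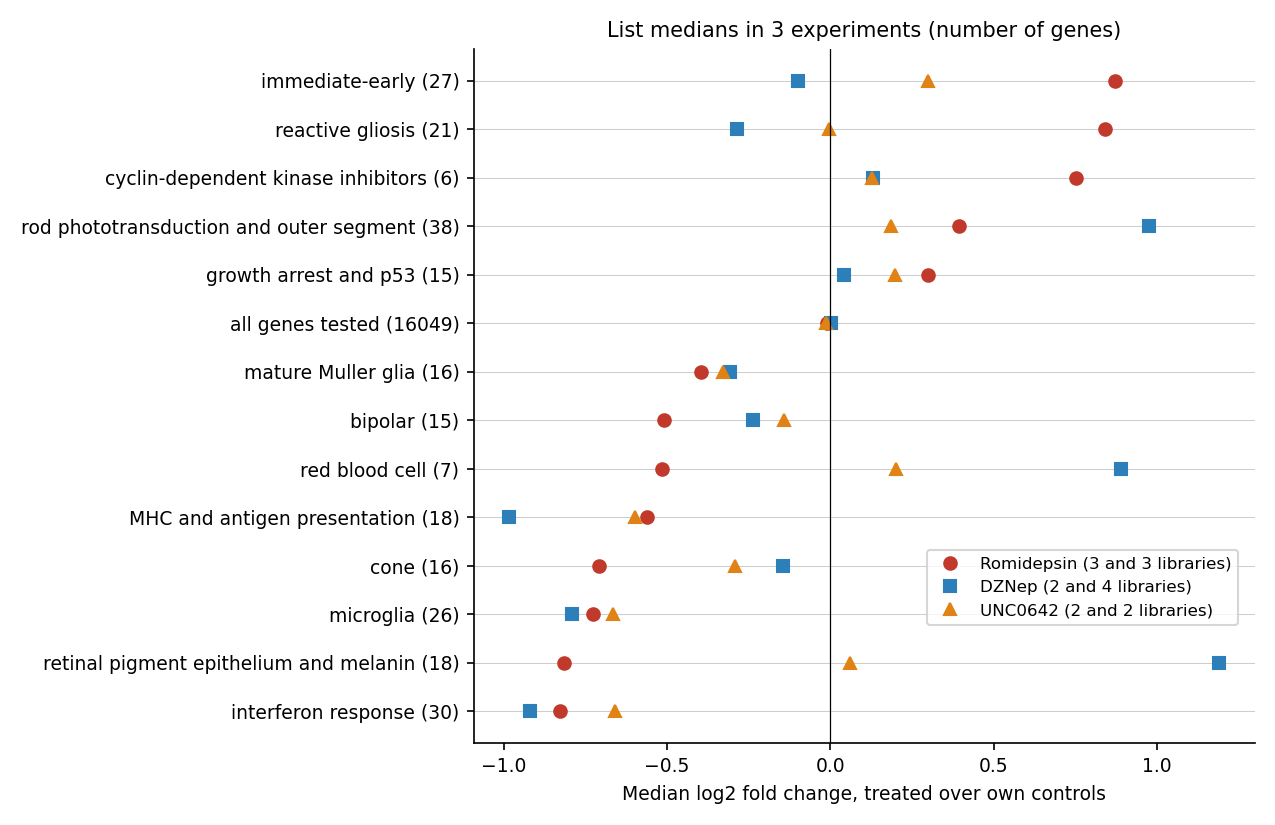
Median log2 fold change, treated over own controls, of the tested members of 13 lists and of all genes tested, for Romidepsin (red circles), DZNep (blue squares) and UNC0642 (orange triangles), with the number of genes in parentheses. The immediate-early median is 0.87 after Romidepsin, -0.10 after DZNep and 0.30 after UNC0642, and the RPE median is -0.82, 1.19 and 0.06.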

How the data were processed

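Retinal polyA RNA was sequenced from stranded Illumina libraries of rd10 mice given Romidepsin or saline from PN9 to PN24. According to the authors' methods and processing notes, BBDuk trimmed the reads, HISAT2 2.2.1 aligned them to NCBIM37 (mm9), and HTSeq 0.11.2 counted them per gene. The strand setting is not given in the sources used here, so overlapping antisense genes cannot be told apart. What was deposited is a table of raw read counts, whole numbers for 37991 Ensembl genes. Unassigned reads have no entry in it.

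GENCODE M1, which uses NCBIM37 too, gave symbols and positions of 37205 genes. Genes were filtered with filterByExpr, scaled by TMM and tested with edgeR 4.0.16 (R 4.3.3) by the quasi-likelihood test, without a block for replicate; the likelihood ratio test of the study and DESeq2 1.42.0 were alternatives. The Benjamini-Hochberg adjustment was made over all genes tested, and adjusted p-values in the text are of the quasi-likelihood test unless another is named. Called genes had an adjusted p under 0.05 and more than 1 unit of log2 change in either direction. CPM were scaled by TMM in the fit they belong to, so the same library differs slightly between the fit of 6 and that of 16 libraries. List scores used log2 CPM with a prior count of 2.

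The genes and lists were chosen with earlier results of these data known. Named genes were the 8 upregulated and the 8 downregulated genes of smallest p whose groups did not overlap, genes the study names for Romidepsin (1 of them is not reported here), the 2 members of smallest p in each list, and the 3 genes of smallest p in each difference between drugs. Other members are given as members of their list. The STAT motif was chosen after seeing the data. On simulated counts of the Romidepsin comparison with 15914 genes, 186 of 200 changed genes were called by the quasi-likelihood test, with 6 unchanged ones. With no changed gene 0 of 15917 were called. How far these counts hold for the real libraries, where the calls depended on single libraries, was not tested.

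Alternatives were RLE or no scaling, no filter, at least 10 counts in every library, a replicate block, leaving out each library, all 9 control retinas of the library series, all 16 libraries, and sex as a term, added after seeing the data. Promoters came from RefSeq. The other libraries of the series were not used here.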

Additional observations from a re-analysis of the deposited data

Results flagged for a closer look

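The effect of Romidepsin differed from that of another inhibitor for some of the named genes, in the test of the difference itself (edgeR's quasi-likelihood test over 16 libraries). Against DZNep the difference of the log2 effects was 0.96 for Tead3, 1.28 for Epha2, 1.93 for Gadd45b, 1.52 for Fosb, 4.00 for Fosl1, 2.60 for Myc, 2.09 for Junb, 3.57 for Lif and 2.06 for Cebpd. It was 3.05 for Egr1, 2.85 for Mt2, 1.66 for Clcf1 and 1.25 for Slc14a1, a urea transporter, and it was below 0 for Mob3b (-1.02), Spc25, a kinetochore gene (-1.26), and Stra6 (-2.28). Adjusted p-values ran from 0.000345 for Egr1 to 0.0476 for Myc. Myc, Mt2, Clcf1, Spc25, Stra6 and Slc14a1 had not passed the adjusted test within the Romidepsin experiment.

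Against UNC0642 the differences were 1.39 for Tead3, -2.05 for Pgc and -2.78 for Kif4, each with an adjusted p of 0.0408. By Xist and Y-linked transcripts all libraries of the DZNep and UNC0642 experiments were from females except DZNep control 3, while the Romidepsin experiment holds both sexes, and the part of sex in these differences was not tested.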

How the results depend on the processing

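Every one of the 90 called genes kept its direction in each alternative that tested it, and no named gene reversed. For the 90 genes in fits on the 6 libraries or a part of them this was largely fixed beforehand, as their groups did not overlap. The counts moved. Genes called higher and lower were 281 and 217 by the likelihood ratio test, 221 and 164 by DESeq2, 211 and 156 without the filter, 189 and 140 with 9 controls and 297 and 197 with 16 libraries in one fit. With sex as a term, added after seeing the data, both were 0. Leaving out single libraries gave 0 to 217 higher and 0 to 121 lower, with 0 in both when control 2, control 3 or Romidepsin 3 was left out. RLE scaling, no scaling and a minimum of 10 counts moved neither count by over 1.5 times.

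The replicate numbers did not pair the samples: deviations from the group means of same-numbered libraries correlated at 0.206, -0.0468 and -0.277, and libraries do not all correlate best with their own number. With the replicate block 75 genes were called higher and 16 lower. Of the 90 genes, 54 were among these, 51 were among those called with 9 controls and 82 among those with 16 libraries, and 32 were called without control 1, 86 without Romidepsin 1 and 84 without Romidepsin 2.

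Effects above and below that of DZNep numbered 252 and 177 by the likelihood ratio test, 253 and 185 by DESeq2, 148 and 96 without the filter and 29 and 6 with the replicate block, and 22 lay below with at least 10 counts in every library. Leaving out single libraries gave 1 to 401 above and 1 to 424 below. For UNC0642 they numbered 152 and 62 by the likelihood ratio test, 155 and 76 by DESeq2 and 50 and 17 without the filter. With at least 10 counts in every library 2 lay above, with the replicate block 0 below, and leaving out single libraries gave 0 to 253 above and 0 to 147 below.

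Of 96 named genes 57 more passed by the likelihood ratio test and 56 by DESeq2, and 30 no longer passed without control 2, without control 3, without Romidepsin 3 or with the sex term; the cause was not tested. List medians near 0 changed sign when 1 library was left out: ribbon synapse (0.0059), antioxidant (-0.02) and vascular (-0.07) without Romidepsin 2, proliferation (0.10) without control 2, and phagocytic microglia without control 2 (0.06) or Romidepsin 1 (0.02). The lens median was 0.06 with at least 10 counts in every library. Other medians moved by over 1.5 times and kept their sign. Among these were interferon (-0.54 with the replicate block, -0.26 without control 2) and rods (0.25 without Romidepsin 1, 0.26 with the sex term). Sterol genes were at -0.22 without Romidepsin 1 and -0.02 without Romidepsin 3. With 9 controls the reactive gliosis (0.50), MHC (-0.29), complement (-0.27) and growth arrest (0.19) medians also moved by over 1.5 times. Complement was also at -0.27 with at least 10 counts. Depth limits single values under the floor of 0.137 to 0.202 CPM, while 14 genes called higher and 10 called lower lay in the fifth of genes with the lowest mean level.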

Other observations

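The genes given here are members of no list above and were chosen after their values were seen. Both cold-inducible RNA-binding proteins were upregulated. Rbm3 was at 46.3, 52.7 and 51.5 CPM in controls and at 94.2, 117 and 141 CPM after Romidepsin (log2 fold change 1.23, SE 0.157, adjusted p = 0.0277). Cirbp was at 153, 138 and 156 CPM against 242, 347 and 356 CPM (1.08, SE 0.162, adjusted p = 0.0334). Every treated library was above every control for both.

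Lin28a, an RNA-binding protein that blocks let-7 maturation, was at 1.37, 1.602 and 2.21 CPM in controls and at 4.36, 5.24 and 4.38 CPM after Romidepsin (1.42, adjusted p = 0.0480). Dnmt3b, a de novo DNA methyltransferase, was at 3.08 to 3.69 CPM against 6.51 to 7.65 CPM (1.05, adjusted p = 0.0480).

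Optc, opticin of the vitreous, was at 136, 221 and 212 CPM in controls and at 81.3, 51.0 and 33.4 CPM after Romidepsin (-1.78, adjusted p = 0.0491). Mfap4, a microfibril protein, was at 28.8 to 36.6 CPM against 2.10 to 8.82 CPM (-2.72, adjusted p = 0.0354). Sned1, a matrix protein, was at 160, 233 and 170.1 CPM against 80.3, 35.5 and 31.2 CPM (-1.94, adjusted p = 0.0495). Slc26a4, the anion exchanger pendrin, was at 4.01 to 4.65 CPM against 1.02, 0.386 and 0.0933 CPM, the last under the floor of 3 counts (-3.14, adjusted p = 0.0422). In the separate DZNep experiment the log2 fold changes of these 4 genes were 2.26, 1.79, 1.10 and 2.06.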
